A study of Mus musculus with 3 samples.

Results

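The genes described here are 10 genes of the cellular response to low oxygen: Adm, Apln, Vegfa, Bnip3, Ddit4, Ndrg1, Egln3, Slc2a1, Pdk1 and Hif1a. They were found by gene symbol in the platform's probe annotation. Of the 10, 9 had a probe, out of 13697 genes named on the array, and together they had 10 probes, with 2 for Ndrg1 and 1 for each of the other 8 genes. No probe was named for Pdk1, the kinase that keeps pyruvate out of the mitochondrion, so it was not analysed here. Fetal livers of E14.5 mouse embryos were profiled on single-colour CodeLink oligonucleotide arrays, 3 in all. Wild-type embryos were compared with DNase II-deficient embryos and with double-deficient embryos lacking DNase II and also IFN-IR, the type I interferon receptor, so both mutants share the loss of DNase II. Each genotype had 1 array, and how many embryos went into it is not stated in the labels. Where 3 values of a gene are given in a row, they run in the order wild-type array, DNase II-deficient array, double-deficient array. Every difference below is therefore a difference between arrays as labelled, with no replicate check, no error and no test.

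In most cells oxygen sets the amount of the transcription factor subunit HIF-1alpha, the product of Hif1a, mainly through protein stability. Prolyl hydroxylases mark the protein for destruction by the von Hippel-Lindau ubiquitin ligase while oxygen is present. When oxygen falls the subunit persists, pairs with ARNT and binds the core letters ACGTG or GCGTG in hypoxia response elements. Its known targets include secreted vessel factors, glucose transporters, glycolytic enzymes and the hydroxylase gene Egln3 itself, which feeds back on the pathway. Several of these targets also respond to other stress pathways, among them the ATF4 arm of the integrated stress response and glucocorticoids for Ddit4.

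Promoter sequence of 5 genes is printed to show those core letters in genes that stood far apart between the arrays (Adm, Apln, Bnip3, Ddit4) and in a gene that did not (Slc2a1). The sequences are RefSeq's, on build GRCm38.p6, each the 250 bases before an annotated transcript start, written 5′ to 3′ on the gene's strand. The positions are chr7:110627407-110627656 on the plus strand for Adm, chrX:48034854-48035103 on the minus strand for Apln, chr7:138909507-138909756 on the minus strand for Bnip3, chr10:59951771-59952020 on the minus strand for Ddit4 and chr4:119108495-119108744 on the plus strand for Slc2a1. Capitals mark ACGTG or GCGTG on either strand, which read as CACGT or CACGC when they lie on the opposite strand.
Adm: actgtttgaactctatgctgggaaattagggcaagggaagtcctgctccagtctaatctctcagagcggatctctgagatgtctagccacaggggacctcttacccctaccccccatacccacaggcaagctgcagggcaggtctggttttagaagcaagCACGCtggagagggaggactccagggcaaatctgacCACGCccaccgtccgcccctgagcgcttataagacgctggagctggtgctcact
Apln: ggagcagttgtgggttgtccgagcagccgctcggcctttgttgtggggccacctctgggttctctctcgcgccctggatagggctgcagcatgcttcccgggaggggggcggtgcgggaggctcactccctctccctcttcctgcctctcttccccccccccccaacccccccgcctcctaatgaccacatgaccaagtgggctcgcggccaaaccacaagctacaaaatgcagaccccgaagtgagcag
Bnip3: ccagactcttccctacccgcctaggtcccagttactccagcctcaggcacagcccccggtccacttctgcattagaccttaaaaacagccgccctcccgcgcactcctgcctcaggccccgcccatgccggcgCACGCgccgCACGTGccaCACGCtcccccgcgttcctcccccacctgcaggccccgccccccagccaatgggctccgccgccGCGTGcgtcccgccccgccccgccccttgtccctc
Ddit4: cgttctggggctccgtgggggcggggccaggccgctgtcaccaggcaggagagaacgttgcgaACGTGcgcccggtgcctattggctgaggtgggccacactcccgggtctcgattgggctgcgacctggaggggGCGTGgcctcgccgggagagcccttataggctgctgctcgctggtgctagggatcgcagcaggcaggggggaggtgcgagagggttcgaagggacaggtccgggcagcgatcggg
Slc2a1: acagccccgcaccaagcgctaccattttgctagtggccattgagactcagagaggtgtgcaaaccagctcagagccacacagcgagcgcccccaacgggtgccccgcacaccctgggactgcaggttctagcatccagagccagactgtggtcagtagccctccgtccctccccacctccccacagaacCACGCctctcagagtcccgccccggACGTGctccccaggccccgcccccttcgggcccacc

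Both motifs were counted on both strands in windows of 300 bases, 250 before and 50 after the start, and CACGTG counts as 2 overlapping matches of ACGTG. The reference table held 11 windows for 9 of the 10 genes and none for Ndrg1. At least 1 match lay in 8 of the 11 windows, against 43.8% of all 32851 windows in the table and 53.5% of the 13804 windows of genes named on the array. Bnip3 had 5 matches, the most of these windows, including the CACGTG whose ACGTG reading begins 107 bases before the start. Ddit4 had ACGTG beginning 187 bases and GCGTG beginning 115 bases before the start, and Adm had GCGTG on the opposite strand at 90 and 54 bases. Slc2a1 also held both motifs, at 36 and 61 bases. No match lay in the window of Apln, in the Vegfa window at the gene's outermost start, or in the second of the Pdk1 windows. A match is a string of letters and not a measured binding site, and a window without a match says nothing of sites elsewhere.

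The deposited values are normalised intensity, and each array's median was close to 1 (0.958, 0.959 and 0.964). Values of different probes are not comparable with each other, so each gene is followed only from array to array. Each array's 25th percentile, 0.162, 0.159 and 0.163, served as a floor for lower values, and no probe of the 9 genes was at the floor on any array. Log2 differences were compared for genes above the array median on at least 1 of the 2 arrays, and a gene was called when it differed at least 2-fold. The liver label matched its markers: all 7 hepatocyte and all 12 erythroid markers measured were above the median of all 3 arrays. The probe for Dnase2a read 40.4, 48.6 and 39.7, and Ifnar1 read 3.60, 4.66 and 3.17. The labels do not say whether these probes fall inside the deletions, so they check nothing and the genotypes rest on the labels.

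The comparison of DNase II-deficient with wild-type fetal liver asks what the loss of the nuclease alters. Of the 9 genes, 5 were called higher without DNase II and none lower. They were the secreted factor genes Adm, Apln and Vegfa, the mitophagy gene Bnip3 and the mTORC1 inhibitor gene Ddit4. Over all 8383 genes compared, 7.67% were called higher and 6.17% lower. The median log2 difference of the 9 genes was 2.16, against -0.21 over all genes compared. Adm, Apln and Ddit4 passed the level filter through the mutant array alone. Among the 6 genes above the median on both arrays, 2 were called higher, Bnip3 and Vegfa.

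**Figure D1:**
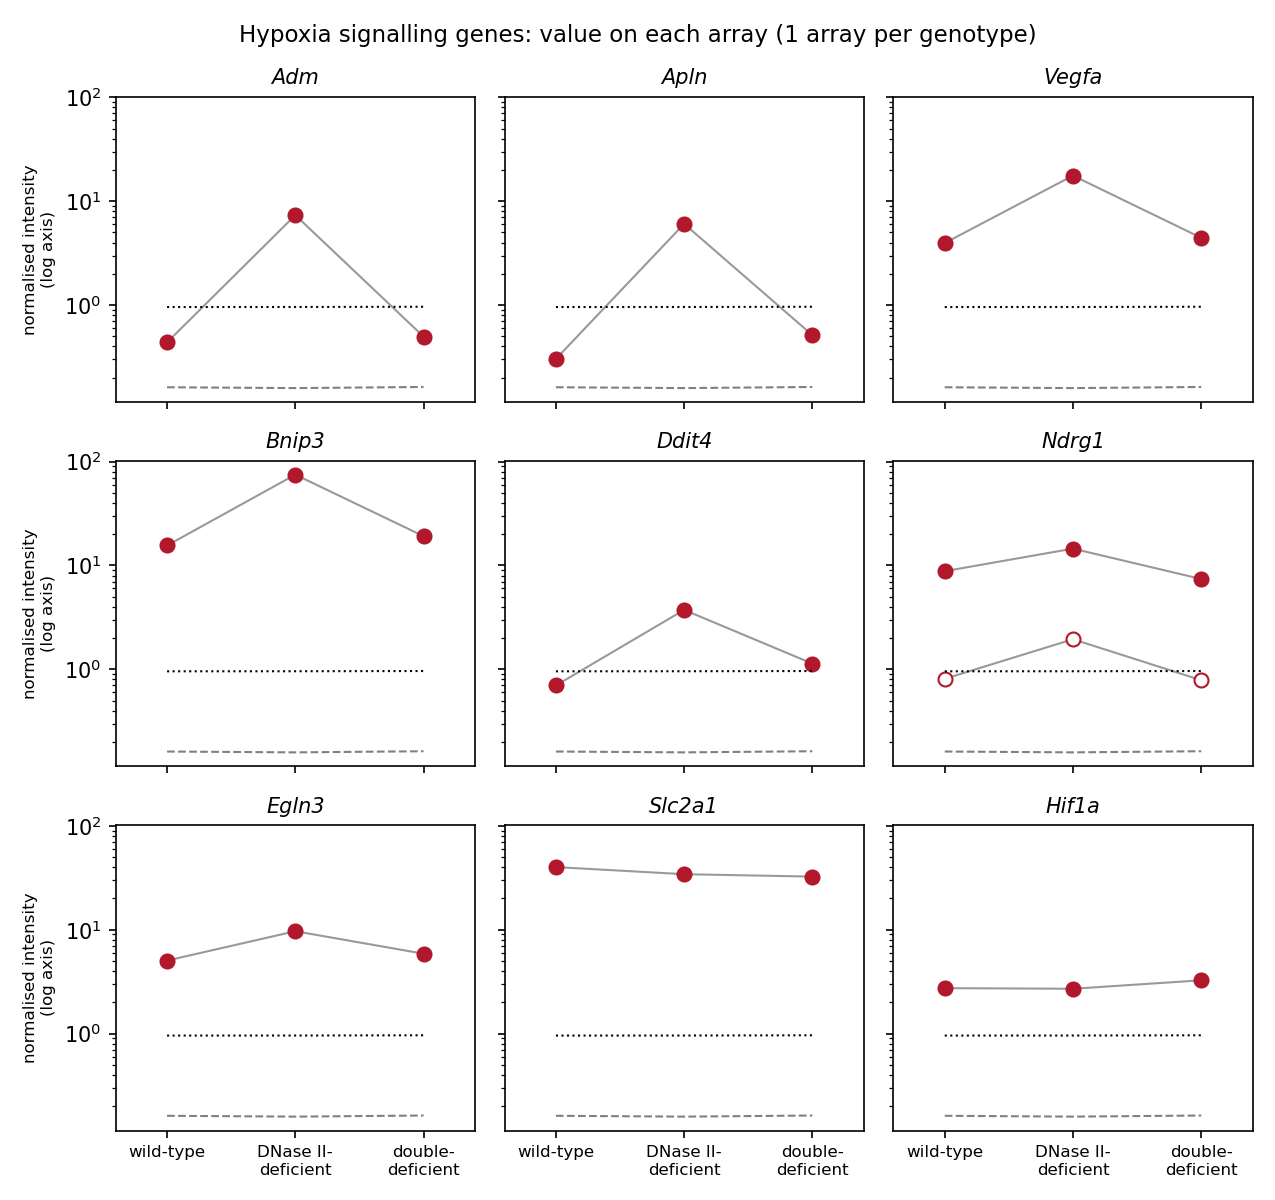
Normalised intensity (log axis) of each probe on the 3 arrays, 1 array per genotype, with filled points for the probe that stands for the gene and open points for the dimmer Ndrg1 probe. The dotted line is the array median and the dashed line the floor at the 25th percentile, and heights are not comparable between genes. Adm, Apln, Vegfa, Bnip3 and Ddit4 peak in the middle array, while Slc2a1 and Hif1a stay nearly level.

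The secreted factors of the group act on blood vessels. Adm, which encodes the vasodilator peptide adrenomedullin, read 0.438 in wild-type, 7.34 without DNase II and 0.497 in the double mutant. It was high on the middle array alone and below the array median on both others. The log2 difference from wild-type was 4.07, rank 44 from the highest of 8383 genes. Apln, encoding apelin, a peptide that growing vessel sprouts are known to make, read 0.303, 6.05 and 0.514. It had the same shape as Adm, at a log2 difference of 4.32 and rank 37. Because both genes were dim in wild-type, their folds depend on the floor. Raising that floor to each array's median made Adm at least 7.66-fold and Apln at least 6.31-fold higher, in place of 16.7-fold and 19.9-fold.

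Vegfa, the main growth factor of blood vessels, was above the median of every array, so its fold does not rest on a dim reading. It read 3.96 in wild-type, 17.6 without DNase II and 4.44 in the double mutant. The value without DNase II stood apart from the others, which lay close together, and the log2 difference from wild-type was 2.16, rank 197. Of 9 receptor and co-receptor genes for these 3 factors, 5 passed the level filter and none was called, a count that so few genes cannot set apart from the 7.67% of all genes called higher. After 75th percentile scaling or cyclic loess 1 of the 5, Ramp1, was called, beside 8.93% and 9.81% of all genes. Kdr, the main VEGF receptor of endothelium, read 10.6, 10.8 and 7.56. Calcrl and Ramp2, which together form an adrenomedullin receptor, had log2 differences of 0.23 and 0.16 without DNase II. Ramp1, at 0.998, 1.87 and 1.18, was highest without DNase II, with a log2 difference of 0.90 that was the largest among the 5, and its dimmer probe gave 0.83. Ramp3 was also highest there but below the array median throughout, at 0.169, 0.303 and 0.198. The apelin receptor gene Aplnr was below the array median on every array, at 0.238, 0.336 and 0.400, and Flt1 was under the floor on all 3.

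The next genes act inside the cell when oxygen or energy is short. Bnip3, whose product sits on mitochondria and directs their removal, was above the median of every array. It read 15.6, 74.7 and 19.1, so its highest value was on the array without DNase II and the others lay close together. Its log2 difference from wild-type without DNase II was 2.26, rank 179. Bnip3l, the related gene that clears mitochondria from maturing red cells, differed the other way at 83.7, 52.8 and 68.3, a log2 difference of -0.67 without DNase II. Erythroid markers were lower on the same array: 7 of the 12 measured of 14 listed were called lower without DNase II, beside 6.17% of all genes. After quantile normalisation or 75th percentile scaling 6 were called, beside 4.46% and 4.39% of all genes. After cyclic loess 4 were called, beside 3.44%. None of the 12 was under the floor. They summed to 1980, 1490 and 1800, but such a sum adds probes of unequal response, and the globin probes Hbb-bt and Hba-a1 alone made 84.0%, 92.5% and 85.7% of it. The part of red cell content in the Bnip3l value was not tested, and in a bulk sample fewer cells of a type and less RNA per cell cannot be told apart.

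Ddit4, encoding REDD1, which restrains mTORC1 signalling under stress, read 0.701 in wild-type, 3.73 without DNase II and 1.14 in the double mutant. The wild-type value lay below the array median and the double-deficient value just above it. The log2 difference without DNase II was 2.41, rank 150. Under the raised floor it was at least 3.90-fold higher, in place of 5.33-fold. Its paralog Ddit4l was dim on every array, at 0.377, 0.219 and 0.368.

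Ndrg1, a stress-responsive gene long used as a marker of hypoxia, was the only one of the 9 with 2 probes, and both are listed for the same transcript. The brighter probe read 8.81, 14.51 and 7.40, and the dimmer read 0.811, 1.95 and 0.787. Both were highest without DNase II and slightly lower in the double mutant than in wild-type. The log2 differences without DNase II were 0.72 and 1.26, so the gene was not called by its brighter probe and would be by its dimmer one. For scale, 428 genes had 2 probes above the median of every array, and their log2 differences disagreed by a median of 0.29 and by 0.81 at the 90th percentile in that comparison. Ndrg1 is not among these brighter pairs, since its dimmer probe was below the median in wild-type and the double mutant. The paralog Ndrg3 differed the other way, at 15.2, 8.77 and 13.5.

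Egln3 encodes PHD3, the oxygen-dependent hydroxylase that HIF itself induces. It read 5.05, 9.67 and 5.88, highest without DNase II, and its log2 difference of 0.94 fell just short of 2-fold. It passed 2-fold under each of the other scalings, at 1.10 after quantile normalisation, 1.07 after 75th percentile scaling and 1.17 after cyclic loess. Hif1a itself was nearly level, at 2.74, 2.70 and 3.26. Its log2 difference without DNase II was -0.02 as deposited and between 0.06 and 0.16 under those 3 scalings, so its sign is not settled. An RNA level does not measure the HIF-1alpha protein, which oxygen controls mainly after translation.

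Slc2a1, the gene of the glucose transporter GLUT1, read 40.0, 34.2 and 32.4. It was above the median of every array and highest in wild-type. Its log2 difference without DNase II was -0.23, which equals the typical difference of all genes to within 0.02, and rank 4359 of 8383 put it near the middle. The sign flipped to 0.02 after quantile normalisation and 0.07 after cyclic loess. GLUT1 is carried by fetal mouse red cells, and the erythroid markers were lower on the same array, as given above. Their part in the Slc2a1 value was not tested. Of the related transporters, Slc2a2, the GLUT2 gene of hepatocytes, read 5.30, 3.75 and 3.79, and Slc2a3 was under the floor on all 3 arrays.

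**Figure D2:**
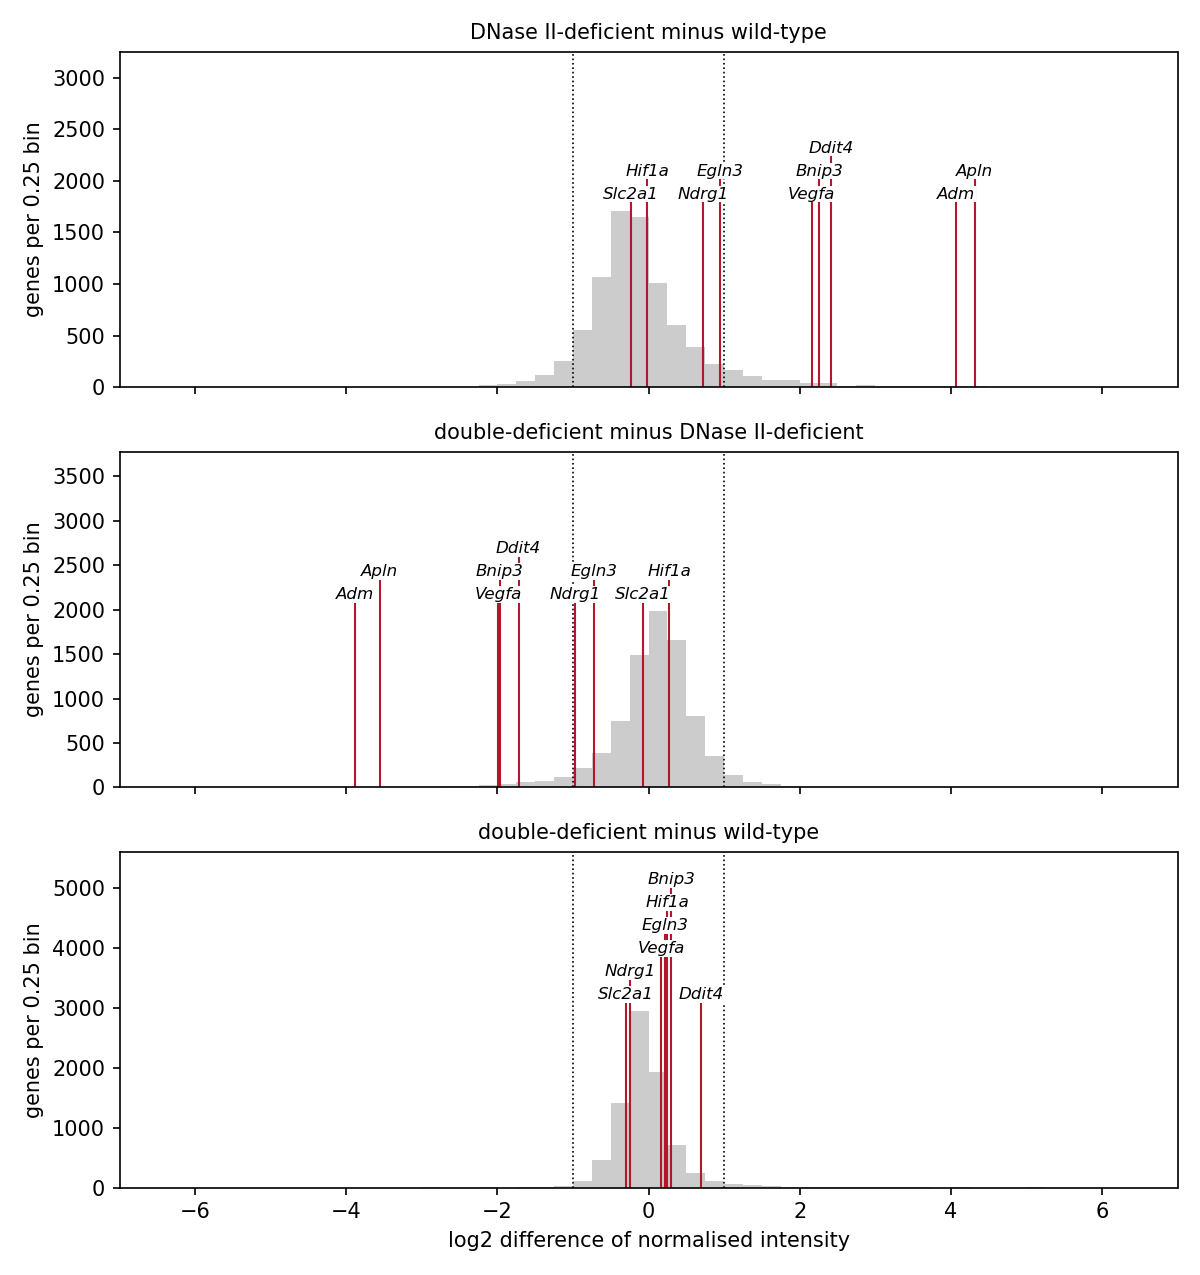
Number of genes per bin of 0.25 in the log2 difference of normalised intensity (grey bars) for each comparison, with red lines at the hypoxia genes that passed the level filter and dotted lines at 2-fold. Without DNase II, Adm at 4.07 and Apln at 4.32 lie far out to the right and Slc2a1 at -0.23 lies within the bulk, while in double-deficient minus wild-type the 7 genes shown lie between -0.30 and 0.70.

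Scaling moved the reference point of these differences. The median over all genes compared was -0.21 as deposited, -0.07 after quantile normalisation and after 75th percentile scaling, and 0.02 after cyclic loess. Called genes that were higher made up 55.4%, 65.8%, 67.1% and 74.1% of all calls in the same order. Relative to the deposited median, the 5 called genes lay between 2.36 (Vegfa) and 4.52 (Apln) log2 units, Egln3 at 1.14, Ndrg1 at 0.93, Hif1a at 0.19 and Slc2a1 at -0.02. The spread among the 500 genes nearest in level, 1.4826 times the median absolute deviation, was between 0.40 and 0.52 for the 9 genes. That spread describes genes on these arrays and not replicates.

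The comparison of the 2 mutants asks what the interferon receptor contributes once DNase II is missing. The same 5 genes, Adm, Apln, Vegfa, Bnip3 and Ddit4, were called lower in the double-deficient array than in the DNase II-deficient array, and none of the 9 was called higher. Over the 8303 genes compared, 4.85% were called lower and 3.11% higher. Adm and Apln passed the level filter through the DNase II-deficient array alone. Among the 7 genes above the median on both arrays, 3 were called lower, Vegfa, Bnip3 and Ddit4. This comparison shares the DNase II-deficient array with the previous one, so a high reading on that array enters both. Log2 differences were -3.88 for Adm, -3.56 for Apln, -1.99 for Vegfa, -1.97 for Bnip3 and -1.72 for Ddit4. Under the raised floor Adm was at least 7.61-fold and Apln at least 6.28-fold lower, in place of 14.8-fold and 11.8-fold. Ndrg1 was lower by 1.96-fold on its brighter probe and 2.48-fold on its dimmer probe. After quantile normalisation, 75th percentile scaling and cyclic loess the brighter probe passed 2-fold too, at -1.09, -1.05 and -1.13. Egln3 was 1.65-fold lower, Slc2a1 differed by -0.08 and Hif1a by 0.27 on the log2 scale.

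The double mutant was also set against wild-type, which asks what is left of the difference when DNase II and the interferon receptor are both missing. None of the 7 genes that passed the level filter was called, where 2.05% of the 8158 genes compared were called higher and 0.735% lower. So few genes cannot set that count apart from these shares. The largest difference among these 7 was that of Ddit4, 1.62-fold higher, rank 309 from the highest. Bnip3 was 1.23-fold, Hif1a 1.19-fold, Egln3 1.16-fold and Vegfa 1.12-fold higher, while Ndrg1 and Slc2a1 were 1.19-fold and 1.23-fold lower. Adm and Apln were below the array median on both arrays and so were not compared. Their dim readings put Apln 1.69-fold and Adm 1.13-fold higher in the double mutant than in wild-type. On the scale of the values, 14.4% of the excess of Ddit4 over wild-type without DNase II was left in the double mutant. For Bnip3 6.03%, for Apln 3.66%, for Vegfa 3.55% and for Adm 0.857% was left. These shares have no error, since each rests on single readings. Those of Adm and Apln also rest on readings below the array median in wild-type and the double mutant.

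Other known targets of the pathway were looked up in a list of 36 genes that holds none of the 10. Of 30 measured and 27 compared, 13 were called higher without DNase II and none lower, beside 7.67% and 6.17% of all genes, with a median log2 difference of 0.89 against -0.21. Of those 27, 6 passed the filter through the mutant array alone, and 7 of the 21 above the median on both arrays were called higher. Under the raised floor the count was 9 of 27, beside 5.96% of all genes under that floor. Igfbp1, encoding a secreted IGF-binding protein of the liver, read 4.06, 82.8 and 9.19. The stanniocalcin gene Stc2 read 0.282, 3.93 and 0.411, and Stc1, under the floor in wild-type and in the double mutant, was at least 11.1-fold higher without DNase II. Under the raised floor these bounds were at least 4.10-fold for Stc2 and at least 1.88-fold for Stc1, which was then not called. Zfp36, whose product destabilises cytokine messenger RNA, read 2.68, 15.5 and 4.29. The largest differences the other way were those of Bnip3l, given above, and Ppp1r15a, at 51.2, 34.0 and 41.4. Between the mutants 10 of 27 were called lower and none higher in the double-deficient array, beside 4.85% and 3.11% of all genes. Of these 27, 6 passed the filter through the DNase II-deficient array alone, and 5 of the 21 above the median on both arrays were called lower. Under the raised floor 7 of 27 were called lower between the mutants, beside 3.81% of all genes. Against wild-type 1 of 21, Igfbp1 at a log2 difference of 1.18, was called higher in the double mutant, beside 2.05%.

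Glycolysis and lactate transport genes, 15 measured of 19 listed, were followed because HIF-1 is known to induce the pathway. Of 14 compared, 8 were called higher without DNase II and none lower, beside 7.67% and 6.17% of all genes, with a median of 1.28 against -0.21, and all 14 were above the median on both arrays. Pfkp, a phosphofructokinase gene, read 5.59, 39.1 and 12.0. Slc16a3, which exports lactate, read 3.29, 11.8 and 5.88, Aldoa read 8.13, 27.6 and 10.5, and Pkm 9.87, 31.1 and 13.9. Slc16a1, the other lactate carrier measured, read 2.70, 1.87 and 2.71. Between the mutants 7 of 14 were called lower in the double-deficient array, beside 4.85% of all genes, and against wild-type 1 of 14, Pfkp, was called higher at 1.10, beside 2.05%.

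Of the regulators of HIF, 11 measured of 14 listed, 9 were compared and 1 was called higher without DNase II, a share close to the 7.67% of all genes. That gene was Egln1, encoding PHD2, the main oxygen sensor of the pathway, at 0.909, 1.95 and 1.48. It passed the filter through the mutant array alone, and none of the 5 regulators above the median on both arrays was called. After 75th percentile scaling or cyclic loess 3 of 9 were called, Egln1, Vhl and Cited2, beside 8.93% and 9.81% of all genes. Vhl, the ubiquitin ligase subunit, read 0.599, 1.17 and 0.657, 1.96-fold higher without DNase II. Cited2, an inhibitor of HIF-1 that competes for its coactivator, read 0.780, 1.45 and 0.668. It was 1.86-fold higher without DNase II and was the 1 gene of 8 called lower between the mutants, at -1.12, a call lost under the raised floor. Arnt, the partner subunit, had a log2 difference of 0.52 without DNase II, and Hif1an, the asparagine hydroxylase that blocks the activation domain, one of -0.48. Hif3a differed by -0.31 on its brighter probe and by 0.20 on its dimmer one, so its probes disagree in sign. Epas1, which encodes HIF-2alpha, lay near or under the floor at 0.191, 0.15 and 0.198. The list's median was 0.34 over the 9 compared but -0.23 over all 11 measured.

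Of the paralogs of the 10 genes, 13 measured of 16 listed, 10 were compared, and 2 were called higher without DNase II and none lower, beside 7.67% and 6.17% of all genes. The median was -0.21, the same as that of all genes compared. Both called genes belong to the VEGF family and both passed the filter through the mutant array alone. Pgf, placental growth factor, read 0.349, 3.55 and 0.25, and Vegfc, the lymphatic growth factor, read 0.545, 1.5 and 0.785. Under the raised floor 1 of them, Pgf, was called, beside 5.96% of all genes. Slc2a4 had a log2 difference of -0.79, and the Pdk1 relatives Pdk2 and Pdk3 had -0.04 and -0.37, while Pdk4 was under the floor on all 3 arrays.

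Lists of 2 other pathways that also act on Ddit4 were set beside these. Of the ATF4 and integrated stress genes, 13 measured of 14 listed, 4 of 12 compared were called higher without DNase II and none lower, beside 7.67% and 6.17% of all genes, with a median of 0.53. Atf3 and Vldlr passed the filter through the mutant array alone, and 2 of the 10 above the median on both arrays were called. The 4 were Atf3 (0.393, 6.45 and 1.11), Cebpb (1.87, 8.92 and 3.71), Vldlr (0.696, 3.0 and 0.814) and Ddit3, which encodes CHOP (13.4, 34.8 and 9.20). Asns and Phgdh, amino acid synthesis genes that ATF4 induces, had log2 differences of -0.53 and -0.39. Among glucocorticoid targets, 7 measured of 8 listed, 2 of 4 compared were called higher, beside 7.67% of all genes. The median was 0.79 over those 4 but 0.14 over all 7 measured. The called genes were Sgk1 (1.52, 4.22 and 1.76) and Tsc22d3 (8.46, 18.5 and 8.99), while Fkbp5 had a log2 difference of 0.45 and Dusp1 of -0.20. Sgk1 and Tsc22d3, 2 of 4 compared, were also called lower between the mutants, beside 4.85% of all genes.

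**Figure D3:**
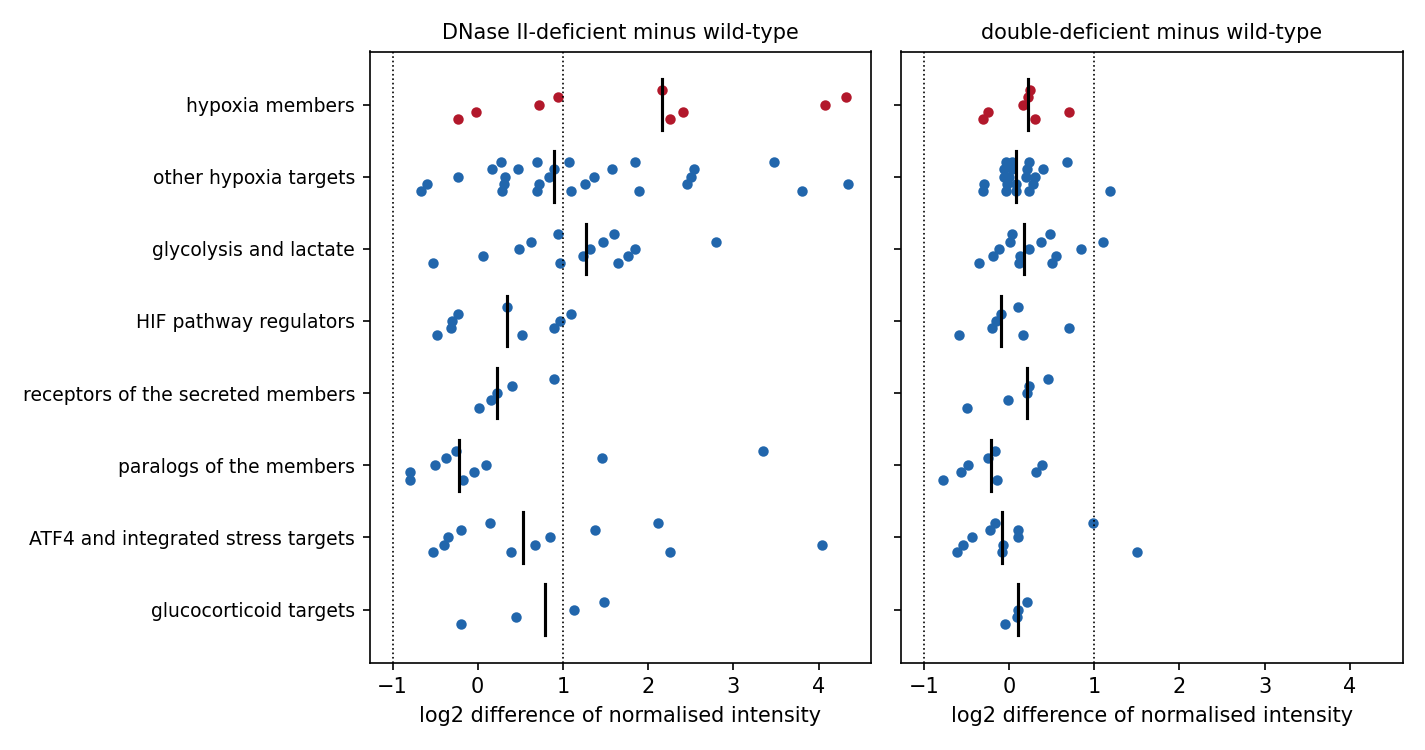
Log2 difference of normalised intensity from wild-type for each gene above the level filter (points) in the hypoxia genes (red) and the other lists (blue), with list medians as black bars and 2-fold as dotted lines, for the DNase II-deficient (left) and double-deficient (right) arrays. Both panels share the wild-type array, and the hypoxia genes have a median of 2.16 on the left and 0.22 on the right.

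Some markers of the cells that could carry these genes moved as well. Of 9 endothelial markers measured of 11, 7 were compared and 3 were called higher without DNase II, beside 7.67% of all genes. These were Pecam1 (0.775, 2.01 and 0.925), Emcn (0.827, 1.93 and 0.817) and Esam (5.74, 13.4 and 6.53), of which Pecam1 and Emcn passed the filter through the mutant array alone. The dimmer Emcn probe was under the floor on all 3 arrays. Esm1 had its highest reading on the same array but stayed below the array median, at 0.173, 0.813 and 0.196. The sinusoidal gene Stab2 went the other way, at 23.0, 10.2 and 22.1, and was called lower, a call lost after quantile normalisation and after cyclic loess. Tie1 and Kdr were nearly level, with log2 differences of 0.07 and 0.02 without DNase II, and Tek had one of -0.50. The median of the 7 compared was 0.07, against -0.21 for all genes. None of the 9 was under the floor, and they summed to 48.3, 45.9 and 45.1, of which Stab2 and Kdr made 69.7%, 45.6% and 65.8%.

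Mesenchymal markers, 10 of 10 measured, were also highest without DNase II in most cases. Of 7 compared, 4 were called higher there, beside 7.67% of all genes, with a median of 1.10 against -0.21 for all genes. Under the raised floor 3 were called, without Lrat, beside 5.96% of all genes. None of 7 was called in double-deficient minus wild-type. So few genes cannot set that count apart from the 2.05% of all genes called higher and 0.735% lower. Pdgfrb, a pericyte and stellate cell receptor, read 1.20, 4.11 and 1.53, and the stellate cell gene Lrat read 0.360, 1.65 and 0.477 and passed the filter through the mutant array alone. Both had their highest reading on the DNase II-deficient array, and Pdgfrb was above the array median on the other arrays too. The 10 markers summed to 109, 182 and 126, of which Col3a1 and Dcn made 79.8%, 77.3% and 76.2%. On the 3 arrays 2, 1 and 2 markers were under the floor, and the nerve growth factor receptor gene Ngfr was under it on all 3.

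Granulocyte markers, 8 of 8 measured, were high in both mutants: 7 of 7 compared were called higher without DNase II and 6 of 7 in the double mutant against wild-type, beside 7.67% and 2.05% of all genes. The 8 summed to 269, 765 and 615, of which S100a9 and S100a8 made 71.5%, 68.4% and 70.7%. Of the macrophage markers, 7 of 10 measured, 3 of 5 compared were called lower in each mutant against wild-type, Marco, Cd5l and Clec4f, beside 6.17% and 0.735% of all genes, and Clec4f was under the floor in the double mutant. Vcam1 had a log2 difference of 0.28 without DNase II. Adgre1, below the array median on every array and so not compared, had one of 0.07. Mrc1 was highest in the double mutant, at 3.98, 2.78 and 7.24. Between the mutants Mrc1 and Marco, 2 of 4 compared, were called higher in the double-deficient array, beside 3.11% of all genes. The 7 macrophage markers summed to 90.4, 26.2 and 36.2, of which Marco and Cd5l made 79.3%, 28.2% and 48.4%. Hepatocyte markers, 7 of 10 measured, summed to 2850, 3020 and 2650, and 1 of 7 was called lower without DNase II, beside 6.17% of all genes. The part of cell composition in the values of the hypoxia genes was not tested.

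Genes with array patterns most like a given gene were named by their distance in the 2 log2 differences from wild-type, over 3 arrays and among 8427 genes. Nearest to Adm were Oas1b (distance 0.24), Trim30a (0.36), Ifit2 (0.42), Stc2 (0.45), Thrb (0.49) and Rnf213 (0.52). Apln lay at 0.63 from Adm, with 11 genes outside the 10 closer than it, and Ddit4, Bnip3 and Vegfa at 1.73, 1.80 and 1.91. The Oas1b probe used read 0.225, 3.25 and 0.237. Its other probe, at 0.172, 6.02 and 0.104 and a log2 difference of 5.13 without DNase II, lay at 1.09 from Adm. Both read near or under the floor outside the DNase II-deficient array, so the likeness of Oas1b depends on the probe chosen. The likeness of Thrb rests on 1 of its 3 probes, since the others had log2 differences of -0.42 and, under the floor, -0.03 without DNase II. Slc2a1 had 1447 genes within a distance of 0.25, where Adm had 1. Nearest to Slc2a1 were Mapre1, Nr4a3, Lsm14a, Adprm, Taf5 and Cetn4, each within 0.02. With 3 arrays such likeness is a description and carries little information.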

How the data were processed

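The deposited values are normalised intensity on a linear scale, which the authors obtained with CodeLink System Software from scans of single-colour arrays, per the labels' protocols. Its version and background method are not stated there. Of 20289 probes, 125 lacked a value and were left out. The platform annotation gave 15120 probes 1 symbol, 38 several and 5131 none, and only single symbols named genes. The reference gene table held the Entrez identifiers of 15064 probes. A gene with several probes was represented by the brightest on average. Background subtraction leaves dim values uncertain, and the common scale hides differences in total RNA.

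Values were floored at the 25th percentile and log2 transformed, with no test, since each genotype had 1 array. Scaling alternatives were quantile, 75th percentile and cyclic loess (limma 3.58.1, R 4.3.3). The steps, in Python 3.11.15, were tested on simulated data. Named genes were the 10 genes, per list up to 4 with the largest absolute difference without DNase II and up to 2 of opposite sign, and the 6 nearest to Adm and to Slc2a1. Other named genes were chosen after their values were seen: Aplnr, Flt1, Kdr, Ramp3, Ddit4l, Slc2a2, Slc2a3, Epas1, Pdk2, Pdk3, Pdk4, and the markers. The genes, lists and rules were chosen with earlier results of these data known. Sequences and positions came from RefSeq on GRCm38.p6, and protein sequences were not used here.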

Additional observations from a re-analysis of the deposited data

How the results depend on the processing

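Each difference of the hypoxia genes was recomputed under 9 alternatives of scaling, floor, level filter and probe choice. All 54 recomputed counts of called genes among the hypoxia genes stayed within 1.5 times the main count. Where the main count was 5 the others ran from 4 to 6. Most of the 54 belong to main counts of 0 that stayed 0, and these carry little information on stability. The counts of the pathway and marker lists were recomputed under the 3 other scalings and the raised floor, alternatives chosen after seeing the data, and 291 of 312 stayed within 1.5 times. After 75th percentile scaling and cyclic loess the HIF regulators called higher without DNase II went from 1 to 3, receptors from 0 to 1, and paralogs lower between the mutants from 1 to 2. Integrated stress genes higher in double-deficient minus wild-type went from 1 to 2 under all 3 scalings and to 0 under the raised floor. The raised floor also took HIF regulators lower between the mutants from 1 to 0, mesenchymal markers lower there from 2 to 1 and paralogs higher without DNase II from 2 to 1. Cyclic loess took erythroid markers lower without DNase II from 7 to 4, and endothelial markers higher between the mutants from 1 to 0. Quantile normalisation and cyclic loess each took hepatocyte and endothelial markers lower without DNase II from 1 to 0, and granulocyte markers lower between the mutants from 0 to 1. Of 217 recomputed differences of single genes, 208 kept their side of 2-fold, and the 9 others, of Egln3 and Ndrg1, passed it. Those of Egln3 without DNase II, and those of Ndrg1 between the mutants under other scalings, are given above. The mean of the Ndrg1 probes gave -1.14 between the mutants, and the dimmer probe gave -1.31 there and 1.26 without DNase II. None of the called genes changed sign. Many of the 217 recomputed differences could not depart from the main value. Probe choice changed nothing for the 8 genes with 1 probe, and a level filter never alters a difference. The lower floor tried, at the 10th percentile, lay under every reading of these genes. For a gene with 1 probe only the 3 scalings and the raised floor could move the difference. Folds of Adm and Apln depend on the floor, since raising it sets their dim readings to a higher value. A level filter at the 75th percentile left out Ddit4 and Hif1a in all 3 comparisons, and Vegfa in double-deficient minus wild-type. No paired analysis was possible because each genotype had 1 array, and for the same reason no array could be left out. Signal over background limits Adm and Apln in wild-type and the double mutant, where single readings below the array median set the fold.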

Other observations

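Further hypoxia targets outside the naming rule, chosen after their values were seen, add detail on collagen and the hormone Epo. Of the 6 collagen-modifying genes measured in the list of other hypoxia targets, P4ha1 (3.39, 7.09 and 3.96, in the order of arrays used above), Plod2 (0.325, 1.78 and 0.387), Loxl2 (0.635, 2.28 and 0.776) and Lox (0.505, 1.5 and 0.860) were at least 2-fold higher without DNase II, beside 7.67% of all genes compared. Plod2, Loxl2 and Lox passed the level filter through the mutant array alone. Under the raised floor they were at least 1.86-fold, 2.38-fold and 1.56-fold higher, so that Plod2 and Lox were no longer called. Under that floor 5.96% of all genes were called higher. Plod1 went the other way, at 1.64, 1.40 and 1.74, and P4ha2 was below the array median on every array. Bhlhe40, a transcriptional repressor, read 1.54, 8.70 and 1.58, and Ero1a, an oxidase of protein folding, read 6.59, 24.5 and 7.77. Epo, which encodes erythropoietin and is made by fetal liver, was below the array median on every array, at 0.335, 0.837 and 0.533, and so was not compared.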
